A study of Homo sapiens with 4 samples.

Results

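The genes described are 53 protein-coding genes of epithelial junctions and epithelial identity, out of 20183 protein-coding genes and 39261 genes in the tables. They were chosen by gene name, with earlier results of these data known. They comprise 23 claudins, 4 other membrane proteins of the tight junction, 4 tight junction plaque proteins and 7 desmosomal cadherins. The rest are 6 desmosomal plaque proteins, the adhesion proteins EPCAM and CDH3, and 7 regulators of epithelial genes. Of the 53, 18 had too few reads to enter any of the 3 comparisons below. No read in any library was found for 6 (CLDN5, CLDN14, CLDN17, CLDN19, CLDN20 and CLDN25).

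Tight junctions seal the space between epithelial cells. Claudins form their strands and set which ions pass, while the ZO proteins (TJP genes) and cingulin tie the strands to actin. Desmosomes are the rivets of the tissue: desmogleins and desmocollins bind across the gap, and plakoglobin, plakophilins and desmoplakin link them to keratin filaments. ESRP proteins direct epithelial splicing, grainyhead-like (GRHL) factors activate junction genes, and OVOL factors repress drivers of the epithelial-to-mesenchymal transition. The ZEB and Snail factors are known to repress many of these genes.

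RNA-seq was made from 4 cultures of human breast cancer lines, with 1 library each: MDA-MB-231 with TMEM126A knockdown, MDA-MB-231 with a control vector (sh-NC), Ca1a (MCF10-Ca1a) with TMEM126A overexpression, and Ca1a with a control vector (pCDH). MDA-MB-231 is a triple-negative line with mesenchymal traits, and Ca1a is a tumour-forming line derived from MCF10A mammary epithelium. TMEM126A encodes a mitochondrial inner membrane protein, and all constructs, those of the controls included, were delivered by lentivirus. The lines were grown in different media, Ca1a with horse serum, insulin, EGF, cholera toxin and hydrocortisone and MDA-MB-231 with fetal bovine serum, and the sources used here do not say whether a line is a pool or a clone.

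There were no replicates, so nothing below was tested or checked against replicate spread. Brackets give 95% counting intervals, which leave out differences between cultures. The library totals, of reads counted on genes, were 21405193 in knockdown cells, 20673373 in their control, 21359273 in overexpressing cells and 21302171 in their control. TMEM126A followed the labels. It had 22.9 normalized counts (reads scaled by the authors' size factor) in knockdown cells against 559 in their control. In Ca1a, where the deposited values are whole counts, it had 9381 in overexpressing cells against 265 in their control. Summed over 7 epithelial markers, the level was 472 FPKM (level per transcript length and library depth) in knockdown cells and 390 in their control. In Ca1a this sum was 2288 FPKM in overexpressing cells and 2055 FPKM in their control. Within it KRT19 ran the other way between the lines, at 163 FPKM in the MDA-MB-231 control and 1.04 FPKM in the Ca1a control. Each of the other epithelial markers was lower in the MDA-MB-231 control than in the Ca1a control. The sum over 6 mesenchymal markers was 759 FPKM in knockdown cells and 770 FPKM in their control, and 79.6 FPKM in overexpressing cells and 95.9 FPKM in their control. Of 16 markers of fibroblasts, immune cells, endothelium, fat and red blood cells, 12 were under 1 FPKM in every library, and their sums ranged from 5.06 to 7.34 FPKM. ADIPOQ, HBA1 and HBB are listed at 0 in every library, and the highest of the 16 was CD14, at 4.65 FPKM in overexpressing cells.

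The first comparison set the MDA-MB-231 control against the Ca1a control, to show which junction genes each line expressed with TMEM126A left as it was. Most of the members that could be compared were far lower in MDA-MB-231. All 6 compared epithelial regulators were among them, but of 8 compared claudins 2 were lower and 3 higher. Of 30 members with at least 1 FPKM in either control, 19 were at least 4-fold lower in MDA-MB-231, 3 were at least 4-fold higher and 8 lay between, on log2(FPKM + 0.1). Among all 11056 protein-coding genes with that level, 6.18% were lower and 12.6% higher by the same rule. The median log2 ratio of the members was -3.08, beside 0.32 over all these genes, and -1.38 over members with any level above 0. The lines differ in both origin and medium, and the parts of these in the differences cannot be told apart. In bulk RNA, fewer cells of a type and less RNA per cell cannot be told apart either.

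**Figure D1:**
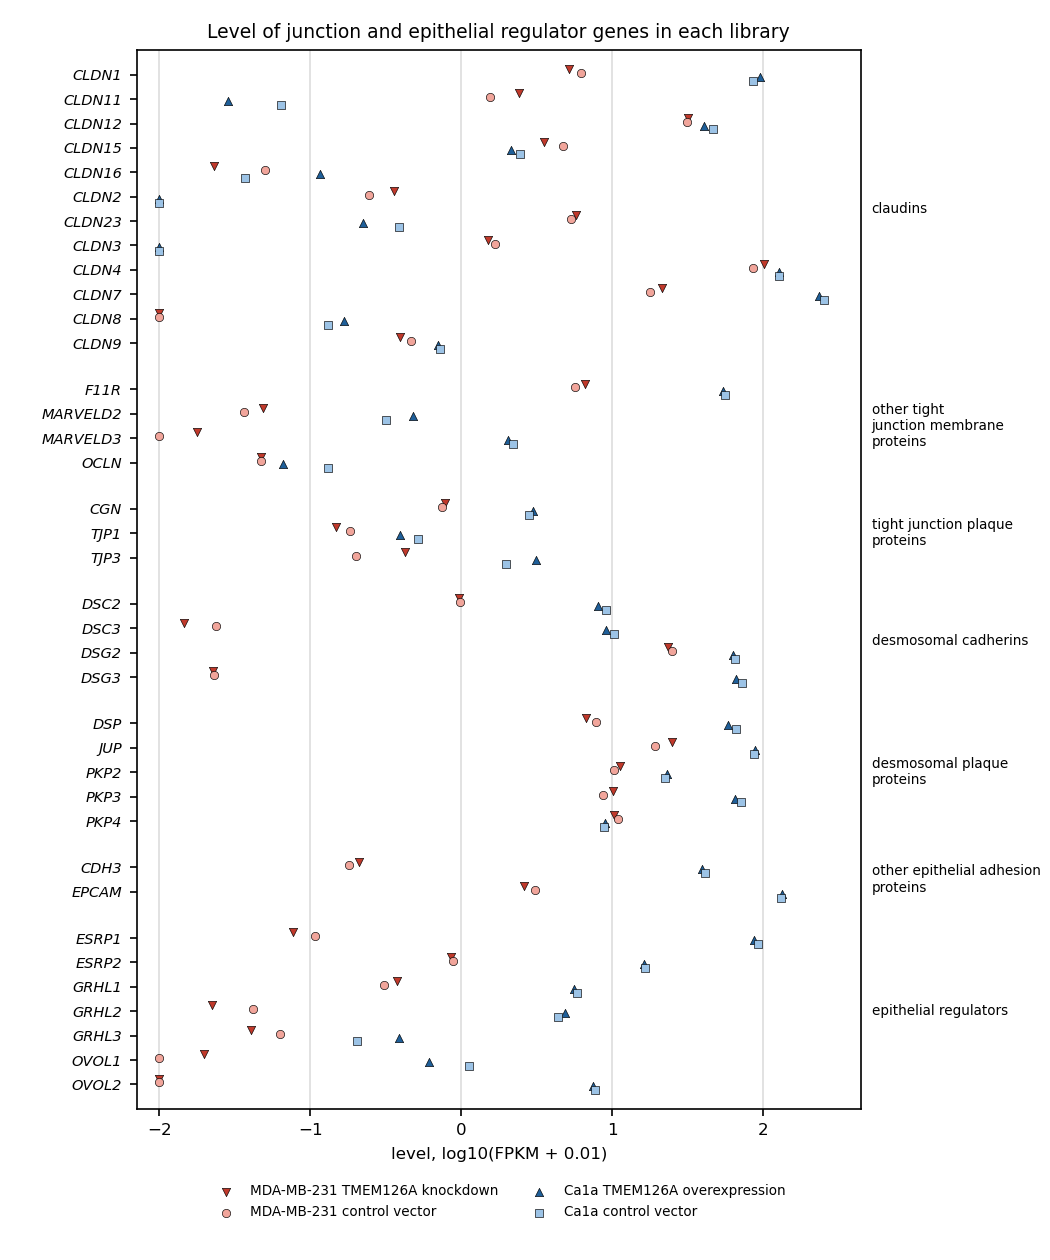
Level of each gene in each library, as log10(FPKM + 0.01), for 37 of the 38 members that reach 0.1 FPKM in at least 1 library, grouped by role; each marker is 1 library. The markers of a line lie close together, while the lines are far apart for DSG3, ESRP1, CDH3, DSC3, OVOL2 and EPCAM and close for CLDN4, CLDN12 and PKP4.

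All 6 epithelial regulators that could be compared were lower in the MDA-MB-231 control. ESRP1, an epithelial splicing regulator, stood at 0.0668 FPKM in knockdown cells and 0.0973 FPKM in their control, and at 87.2 FPKM in overexpressing cells and 92.6 FPKM in their control. Its relative ESRP2 stood at 0.847 FPKM in knockdown cells and 0.875 FPKM in their control, and at 16.2 FPKM in overexpressing cells and 16.4 FPKM in their control. Scaled to the library totals, ESRP1 was 899-fold lower (502 to 1801) and ESRP2 18.0-fold lower (14.9 to 22.1) in the MDA-MB-231 control than in the Ca1a control. In Ca1a, ESRP1 was thus the higher of the pair per length, and in MDA-MB-231 ESRP2 was.

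GRHL2, an activator of CDH1 and claudin genes, had 2 reads in knockdown cells and 5 in their control, against 830 in overexpressing cells and 735 in their control. Between the controls it was 143-fold lower (60.9 to 441) in MDA-MB-231, and GRHL1 was 18.3-fold lower (13.2 to 26.0). GRHL3, a further member best known from epidermal differentiation, was under 1 FPKM in every library. OVOL2 had no read in either MDA-MB-231 library, against 323 reads in overexpressing Ca1a cells and 340 in their control. A count of 0 allows up to 3 reads, so OVOL2 was at least 110-fold lower in the MDA-MB-231 control, taken against that limit with the Ca1a count as it stands, as for the other genes at 0. OVOL1 had 1 read in knockdown cells and none in their control, against 69 in overexpressing cells and 128 in their control, which made it at least 41.4-fold lower in the MDA-MB-231 control.

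Their counterparts among the drivers of the mesenchymal state did not all lie on the same side. ZEB1 stood at 8.07 FPKM in knockdown cells and 8.31 FPKM in their control, and 0.116 FPKM in overexpressing cells and 0.132 FPKM in their control. ZEB2 was likewise 21.1-fold higher (14.4 to 32.4) in the MDA-MB-231 control. SNAI2 was 5.07-fold lower (4.66 to 5.52) in the MDA-MB-231 control, and TWIST1 is listed at 0 there but at 3.98 FPKM in the Ca1a control.

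The adhesion genes EPCAM and CDH3 followed the regulators. CDH3, which encodes the placental cadherin of basal epithelium, stood at 0.202 FPKM in knockdown cells and 0.171 FPKM in their control, and 39.3 FPKM in overexpressing cells and 41.6 FPKM in their control. EPCAM, an adhesion molecule of simple epithelia that binds claudin 7, was 41.1-fold lower (34.6 to 49.1) in the MDA-MB-231 control, with 134 reads there and 5670 in the Ca1a control. CDH1, the E-cadherin gene of adherens junctions, was 336-fold lower (240 to 486). The cadherin partner genes CTNNA1 and CTNNB1 were high in both controls, at 89.9 and 70.0 FPKM in MDA-MB-231 and 106 and 32.0 FPKM in Ca1a. Wider lists were read by the same 4-fold rule, by which 6.18% of all protein-coding genes were lower and 12.6% higher. Of 18 epithelial identity genes 12 were lower in the MDA-MB-231 control and 1 was higher. In other lists, 4 of 5 gap junction genes, 2 of 3 desmosome-linked genes and 2 of 6 hemidesmosome genes were lower. Of 11 adherens junction genes 3 were lower and 1 higher, and of 15 other tight junction and polarity genes 4 were lower and 3 higher. The epithelial identity gene higher in the MDA-MB-231 control was SPDEF, a transcription factor of luminal and secretory cells, at 215-fold (73.2 to 1045). The 12 lower ones included S100A14, 2336-fold lower (1616 to 3516), and RAB25, 2811-fold lower on 1 read in that control (504 to 111086).

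Claudins did not move as a block between the lines. Of 8 that could be compared, CLDN1 and CLDN7 were lower in the MDA-MB-231 control, CLDN3, CLDN11 and CLDN23 were higher, and CLDN4, CLDN12 and CLDN15 differed by less than 4-fold. CLDN7 was 11.7-fold lower (10.9 to 12.6) and CLDN1, a sealing claudin of skin and basal cells, 13.2-fold lower (12 to 14.5). CLDN4, a sealing claudin, was nearly as high in MDA-MB-231, at 102 FPKM in knockdown cells and 85.8 FPKM in their control, against 127 FPKM in both Ca1a libraries. CLDN11, known from myelin and the testis, was 32.3-fold higher (10.7 to 159) in the MDA-MB-231 control, on 94 reads there and 3 in the Ca1a control. CLDN23 was 16.2-fold higher (9.25 to 30.9). CLDN3 had 33 reads in knockdown cells, 34 in their control and none in either Ca1a library, so it was at least 11.7-fold higher in the MDA-MB-231 control.

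CLDN3 and CLDN4 are neighbours on chromosome 7, with 29.3 kb between them in GENCODE release 29, yet only CLDN4 had reads in all 4 libraries. Claudin 2, which forms cation pores and makes junctions leaky, followed CLDN3, with 38 reads in knockdown cells, 26 in their control and none in Ca1a. The paired genes CLDN22 and CLDN24 had at most 3 reads in any library, and CLDN22 overlaps an exon of WWC2 on the opposite strand. With the strand setting unknown, reads of such pairs cannot be told apart. The same holds for CLDN2 with RIPPLY1, MARVELD3 with PHLPP2 and ESRP2 with NFATC3. On their own strand OVOL2 shares exon positions with SNX5, and CLDN12 with CDK14 and GTPBP10. Some other members also overlap genes, and the sources used here do not say how such reads were counted.

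As shares of all claudin transcripts per length, the make-up of the lines differed. CLDN4 took 58.3% of summed claudin FPKM in knockdown cells and 55.1% in their control, and 25.2% in overexpressing cells and 24.4% in their control. CLDN7 took 12.3% in knockdown cells and 11.6% in their control, and 47.0% in overexpressing cells and 49.2% in their control. CLDN12, a claudin linked to calcium permeability, took 18.4% in knockdown cells and 20.3% in their control, and 8.08% in overexpressing cells and 9.05% in their control. CLDN4 thus had the largest share in MDA-MB-231 and CLDN7 in Ca1a. The summed level was 174 FPKM in knockdown cells and 156 FPKM in their control, and 504 FPKM in overexpressing cells and 519 FPKM in their control. In Ca1a the 4 most abundant claudins made up 99.3% in both libraries, and in MDA-MB-231 they made up 92.3% in knockdown cells and 91.0% in their control.

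**Figure D2:**
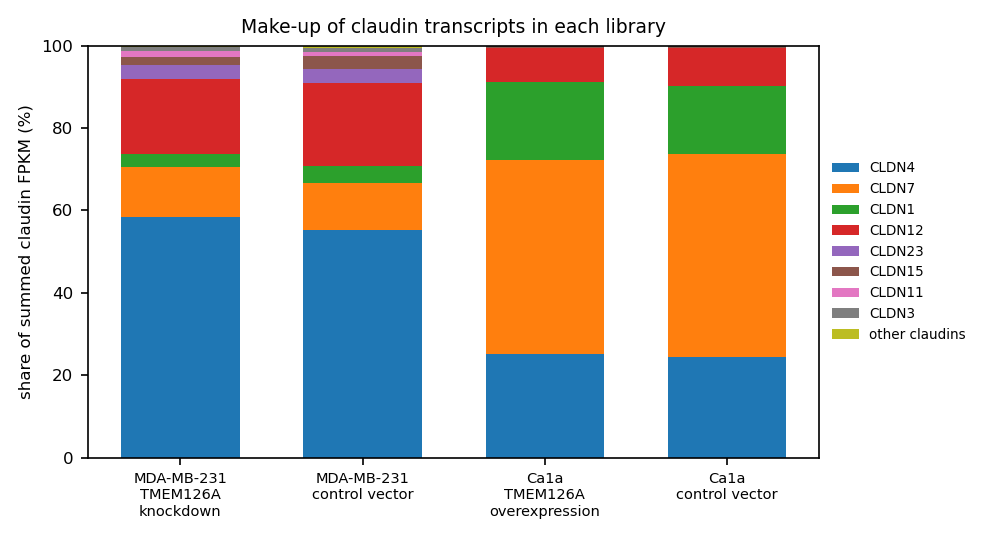
Share of each claudin in the summed claudin FPKM (percent, stacked bars from 0 to 100) in the 4 libraries; each bar is 1 library. CLDN4 is the widest band in both MDA-MB-231 libraries and CLDN7 in both Ca1a libraries, and the libraries of a line look alike.

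Other tight junction genes were lower in MDA-MB-231 by unequal amounts. F11R, which encodes the adhesion receptor JAM-A, was 9.35-fold lower (8.65 to 10.1) in the MDA-MB-231 control. MARVELD3, a relative of occludin, had 1 read in knockdown cells and none in their control, against 288 in overexpressing cells and 303 in their control. CGN, the cingulin gene, was 3.88-fold lower (3.18 to 4.77). The plaque protein gene TJP3 was 10.2-fold lower (6.17 to 17.8), on 17 reads in the MDA-MB-231 control and 178 in the Ca1a control.

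OCLN, the occludin gene, and TJP1, which encodes ZO-1, were low everywhere. OCLN had 6 reads in knockdown cells and 6 in their control, and 9 in overexpressing cells and 19 in their control. TJP1 was at most 0.510 FPKM, in the Ca1a control. OCLN has a near-identical partial copy on its chromosome whose reads the counting could split or drop, so its level is uncertain. Why TJP1 was counted so low was not tested.

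The desmosomal cadherins lie in 1 cluster of 559 kb on chromosome 18, in the order DSC3, DSC2, DSC1, DSG1, DSG4, DSG3 and DSG2, with the desmocollins on the minus and the desmogleins on the plus strand of GRCh38. Reads came from both outer ends of the cluster, while DSC1, DSG1 and DSG4 in its middle, genes of cornified epidermis and hair, had at most 4 reads in any library. DSG3, the desmoglein of basal stratified epithelium (31447795 to 31478702), stood at 0.0127 FPKM in knockdown cells and 0.0129 FPKM in their control, and 66.7 FPKM in overexpressing cells and 72.9 FPKM in their control. Its neighbour DSG2, the desmoglein of simple epithelia (31498043 to 31549008), stood at 23.4 FPKM in knockdown cells and 24.8 FPKM in their control, and 63.7 FPKM in overexpressing cells and 64.9 FPKM in their control. The neighbours thus differed in MDA-MB-231 and were alike in Ca1a. At the other end, DSC3 had 1 read in knockdown cells and 3 in their control, against 2109 in overexpressing cells and 2284 in their control. DSC2, the widely expressed desmocollin, was 9.26-fold lower (7.84 to 11) in the MDA-MB-231 control.

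In MDA-MB-231 the desmosomal cadherin transcripts were thus almost all DSG2, with 96.0% of the summed FPKM in knockdown cells and 96.1% in their control. In Ca1a, DSG3 took 45.2% in overexpressing cells and 46.4% in their control, and DSG2 took 43.2% in overexpressing cells and 41.3% in their control. Between the controls DSG3 was 5616-fold lower in MDA-MB-231 on 2 reads there, with an interval from 1554 to 46380, and DSC3 739-fold lower on 3 reads (253 to 3585).

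**Figure D3:**
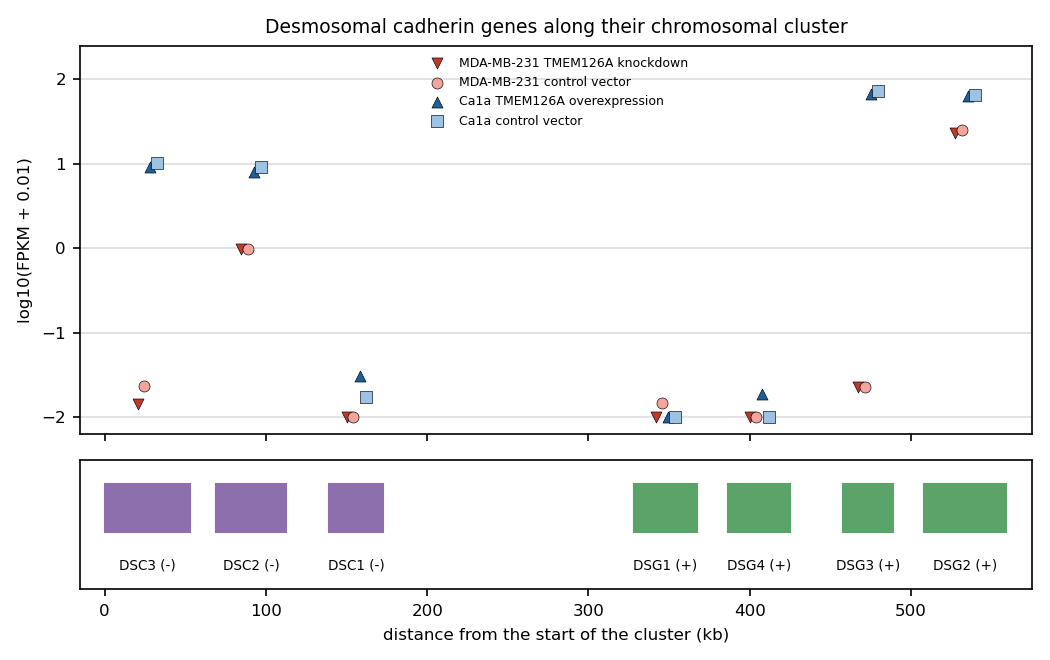
Levels of the 7 desmosomal cadherin genes, as log10(FPKM + 0.01), above a map of the cluster with distance in kb from its start and the strand in brackets; each marker is 1 library, offset sideways so that markers can be seen. DSC3 and DSG3 are high in Ca1a only among these lines, DSC2 and DSG2 are present in both, and the middle genes are near the bottom in all 4 libraries.

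Plaque genes of the desmosome were present in both lines. DSP, which encodes desmoplakin, was 8.46-fold lower (8.12 to 8.80) in the MDA-MB-231 control, and PKP3, the plakophilin of most epithelia, 8.46-fold lower (7.70 to 9.30). JUP, the plakoglobin gene, was 4.74-fold lower (4.52 to 4.98). PKP2, a plakophilin also found in heart, was 2.14-fold lower (2.0 to 2.29), and PKP4, which also binds classical cadherins, was 1.26-fold higher (1.19 to 1.32). PKP1, the plakophilin of stratified epithelium, had at most 3 reads in any library.

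Promoter sequences, 250 bases before to 50 after the start, were found for 35 of the 53 members in RefSeq (GRCh38.p14) and searched for CACCTG, an E-box that ZEB and Snail factors bind, and for the grainyhead motif AACCNGTT. Both strands were read. CACCTG stood in 11 of the 35, or 31.4%, beside 19.9% of 15516 promoters of protein-coding genes, and AACCNGTT in 1 of the 35, that of CGN, beside 1.60%. Among desmosomal cadherins, 3 of 6 promoters held CACCTG, and among claudins 4 of 18. The promoters of DSC2, DSG2 and DSP are printed as desmosome genes that hold it and DSG3 as the neighbour that differed most between the lines, each 5′ to 3′ on its own strand with CACCTG or its reverse complement CAGGTG in capitals.
DSC2 promoter, chr18:31102372-31102671, minus strand: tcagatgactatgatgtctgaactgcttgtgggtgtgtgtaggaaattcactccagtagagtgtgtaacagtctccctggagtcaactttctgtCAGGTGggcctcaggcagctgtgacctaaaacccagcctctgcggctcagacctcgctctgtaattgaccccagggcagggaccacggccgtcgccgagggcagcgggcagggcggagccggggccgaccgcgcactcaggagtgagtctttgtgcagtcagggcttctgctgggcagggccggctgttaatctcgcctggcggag
DSG2 promoter, chr18:31497927-31498226, plus strand: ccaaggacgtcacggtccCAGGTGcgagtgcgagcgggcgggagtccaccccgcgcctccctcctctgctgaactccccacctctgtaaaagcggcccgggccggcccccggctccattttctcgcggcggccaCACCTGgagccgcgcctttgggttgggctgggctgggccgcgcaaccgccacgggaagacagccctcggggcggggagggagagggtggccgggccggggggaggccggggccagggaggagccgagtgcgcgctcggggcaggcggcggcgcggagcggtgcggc
DSP promoter, chr6:7541421-7541720, plus strand: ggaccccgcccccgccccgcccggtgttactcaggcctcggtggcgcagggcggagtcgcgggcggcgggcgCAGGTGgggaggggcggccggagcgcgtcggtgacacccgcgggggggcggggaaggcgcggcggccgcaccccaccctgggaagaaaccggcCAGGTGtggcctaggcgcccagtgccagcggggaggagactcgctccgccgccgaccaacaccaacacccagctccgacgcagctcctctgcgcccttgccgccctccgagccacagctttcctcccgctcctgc
DSG3 promoter, chr18:31447491-31447790, plus strand: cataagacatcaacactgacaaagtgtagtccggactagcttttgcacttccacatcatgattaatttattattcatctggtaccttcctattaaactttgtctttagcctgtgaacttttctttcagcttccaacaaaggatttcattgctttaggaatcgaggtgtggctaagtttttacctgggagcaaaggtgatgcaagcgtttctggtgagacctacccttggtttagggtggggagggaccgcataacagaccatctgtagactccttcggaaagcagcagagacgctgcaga

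Of 9 promoters of members at least 4-fold lower in the MDA-MB-231 control, 2 held it, or 22.2%, and of 8 promoters of the other compared members 2 did. Over all protein-coding genes it stood in 30.4% of 523 promoters of genes lower in the MDA-MB-231 control and 17.3% of 8602 promoters of the other compared genes. A match is a string of letters and not a bound site, and no match says only that these letters are not in this window.

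The second comparison set MDA-MB-231 cells with TMEM126A knockdown against their control. TJP3, which encodes the plaque protein ZO-3, was higher in knockdown cells, as were CLDN11, JUP and CLDN7, and none was lower by the rule. A gene was called when it had a mean of at least 20 normalized counts, a level at least 25% above that of the other library, and a ratio interval that left out 1. By this rule 4 of 25 measured members were higher and 0 lower, where 4.04% of 11914 protein-coding genes were higher and 1.94% lower. Past 2-fold there was 1 member higher and 0 lower, beside 0.252% and 0.134% of all. The median log2 ratio was 0.08 over the members and 0.01 over all, and -0.01 over the members with no filter on low counts. The sum over epithelial markers given above was also higher in knockdown cells, and its part in these calls was not tested. Within that sum the keratin gene KRT19 stood at 220 FPKM in knockdown cells and 163 FPKM in their control. KRT8 stood at 127 and 112 FPKM in the same order, and KRT18 at 120 and 110 FPKM. CDH1 was higher at 0.332 and 0.203 FPKM, while EPCAM, KRT5 and KRT17 were not higher.

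TJP3 (chromosome 19, 3708109 to 3750813, plus strand) had 36.8 normalized counts in knockdown cells (95% Poisson interval 25.9 to 50.7) against 17.1 in their control (9.96 to 27.4). That is 2.15-fold higher (1.18 to 4.07), on few reads. CLDN11 (chromosome 3, 170418865 to 170454733, plus strand) had 143 normalized counts in knockdown cells against 94.6 in their control, 1.51-fold higher (1.16 to 1.98). A gene on the same strand overlaps its exons. JUP (chromosome 17, 41754604 to 41786931, minus strand) had 2639 normalized counts in knockdown cells against 1985 in their control, 1.33-fold higher (1.253 to 1.41). Of the 4, JUP was counted most deeply and had the narrowest interval.

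CLDN7 (chromosome 17, 7259903 to 7263983, minus strand) had 995 normalized counts in knockdown cells against 791 in their control, 1.26-fold higher (1.14 to 1.38). It lay at the threshold: scaled by total reads its ratio was 1.23, by TMM 1.247, and in FPKM 1.196, so that the call was lost each time. Its exons overlap those of ELP5 on the opposite strand, which had 980 normalized counts in knockdown cells and 902 in their control. CLDN4 was close behind, with 3050 normalized counts in knockdown cells against 2509 in their control, 1.22-fold higher (1.15 to 1.28).

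By any fold, intervals left out 1 for 12 of the 25 members: 8 were higher, beside 18.0% of all genes, and 4 lower, beside 11.8%. The 4 lower ones included CLDN1, 1.2-fold lower (1.05 to 1.37), DSP, 1.15-fold lower (1.09 to 1.22), and DSG2, 1.05-fold lower (1.01 to 1.10). Within the desmosome plaque, JUP, PKP2 and PKP3 were thus on the higher side and DSP on the lower. EPCAM had 112 normalized counts in knockdown cells and 135 in their control, within counting error. ESRP2, with 101 normalized counts in knockdown cells and 111 in their control, also lay within it. So did GRHL1, with 47.7 in knockdown cells and 38.2 in their control, and the other 5 regulators were too low to measure in this line.

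**Figure D4:**
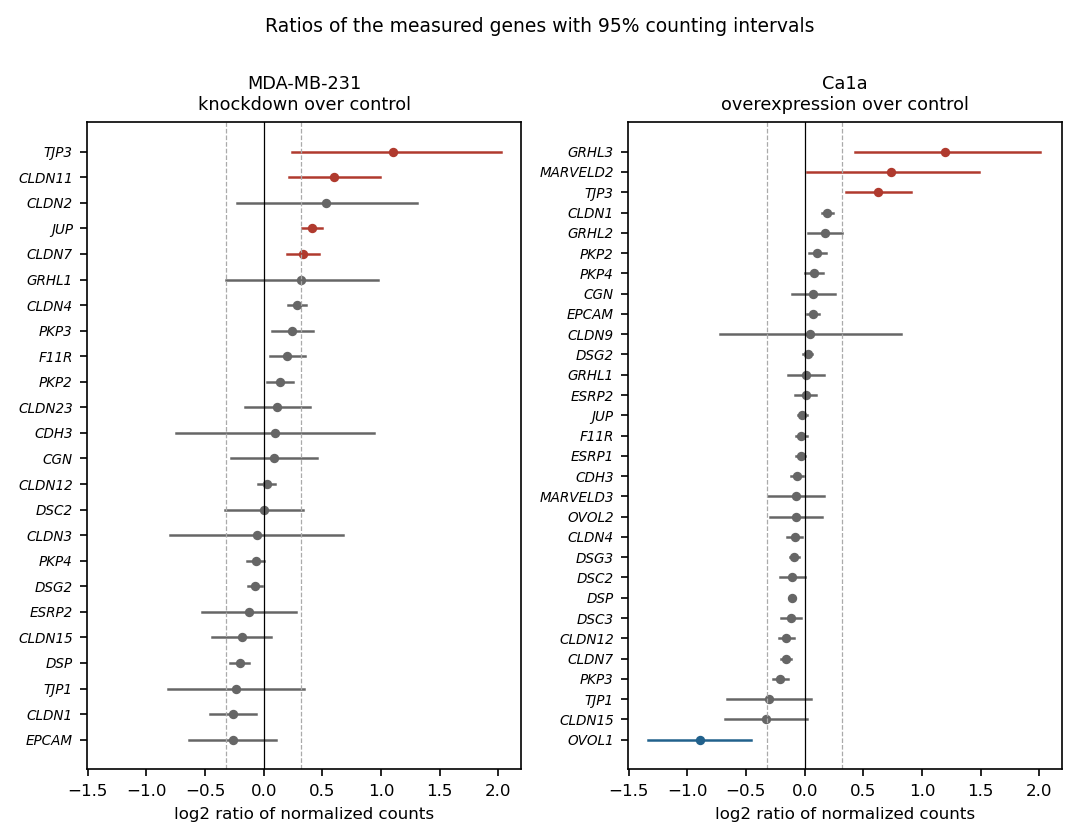
Log2 ratio of normalized counts with its 95% counting interval for the measured members but 1, knockdown over control in MDA-MB-231 (left, 24 of 25 genes) and overexpression over control in Ca1a (right, 30 of 31 genes); dashed lines mark the 25% rule in either direction, red marks genes called higher and blue genes called lower. TJP3 is red in both panels, OVOL1 is the blue gene at the bottom right, and most abundant genes lie near 0 with short intervals.

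Lists of other junction and epithelial genes were read by the same rule in the knockdown comparison, where 4.04% of all genes were higher and 1.94% lower. In the adherens junction list 0 of 10 measured genes were called, in the list of other tight junction and polarity genes 0 of 16, and in the hemidesmosome list 0 of 6. PPL, the periplakin gene and the called gene among 4 desmosome-linked genes, was 1.55-fold higher (1.37 to 1.75). GJA1, a connexin gene and the called gene among 4 gap junction genes, was 1.39-fold higher (1.16 to 1.68). Of 16 epithelial identity genes 4 were higher and 0 lower. These were the transcription factor gene SPDEF, 1.74-fold higher (1.58 to 1.92), the protease inhibitor gene SPINT1, 1.5-fold (1.30 to 1.74), ELF3, 1.42-fold (1.15 to 1.76), and ERBB3, 1.41-fold (1.21 to 1.66). ZEB1, ZEB2, SNAI1 and SNAI2 were not called, and CDH1 had 51.7 normalized counts in knockdown cells against 34.2 in their control, a ratio of 1.51 (0.962 to 2.4).

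The third comparison set Ca1a cells with TMEM126A overexpression against their control. GRHL3, MARVELD2 and TJP3 were higher in overexpressing cells and OVOL1 was lower. These 3 of 31 measured members were higher by the 25% rule and 1 was lower, where 3.95% of 10969 protein-coding genes were higher and 4.14% lower. The share of lower members, 1 of 31, is near that background. Past 2-fold there was 1 member higher and 0 lower, beside 0.255% and 0.301% of all genes. The median log2 ratio was -0.03 over the members and 0.01 over all. The called genes had at most 3.14 FPKM, and no junction gene above that level was called.

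GRHL3 (chromosome 1, 24319322 to 24364482, plus strand) had 48 reads in overexpressing cells (95% Poisson interval 35.4 to 63.6) against 21 in their control (13.0 to 32.1). That is 2.29-fold higher (1.34 to 4.02). Its relatives GRHL1 and GRHL2 were not called. GRHL1 had 721 reads in overexpressing cells and 715 in their control, a ratio of 1.01 (0.908 to 1.12), and GRHL2 a ratio of 1.13 (1.02 to 1.249). The GRHL3 promoter, printed as that of the regulator with the largest ratio, held CACCTG at 21 bases before and 9 bases after the start, shown in capitals.
GRHL3 promoter, chr1:24319107-24319406, plus strand: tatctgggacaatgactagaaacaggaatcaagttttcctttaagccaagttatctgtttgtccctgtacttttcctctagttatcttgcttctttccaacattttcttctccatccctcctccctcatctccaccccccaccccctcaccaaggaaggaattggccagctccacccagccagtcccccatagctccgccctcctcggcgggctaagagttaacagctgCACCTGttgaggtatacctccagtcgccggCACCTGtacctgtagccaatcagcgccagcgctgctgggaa

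OVOL1 (chromosome 11, 65787022 to 65797219, plus strand) had 69 reads in overexpressing cells (53.7 to 87.3) against 128 in their control (107 to 152), 1.86-fold lower (1.37 to 2.52). An antisense gene overlaps its exons in GENCODE, and the antisense gene the tables name OVOL1-AS1 had 1 read in overexpressing cells and none in their control. OVOL2, at 323 reads in overexpressing cells and 340 in their control, was not called, with a ratio of 0.95 (0.813 to 1.11). ESRP1 had 9944 reads in overexpressing cells and 10185 in their control, a ratio of 0.976 (0.95 to 1.0), and ESRP2 a ratio of 1.01 (0.947 to 1.07).

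MARVELD2, which encodes tricellulin of the corners where 3 cells meet, had 45 reads in overexpressing cells against 27 in their control, 1.67-fold higher (1.01 to 2.79). Its interval reaches nearly to 1. TJP3 had 275 reads in overexpressing cells (243 to 309) against 178 in their control (153 to 206), 1.54-fold higher (1.27 to 1.88). Among the members called here, TJP3 alone had a mean of at least 100 counts.

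Of the 21 members measured in both lines, TJP3 was the single one called in both. The share of all genes called in both lines was not counted, so whether this is more than usual cannot be said. TJP3 was higher both where TMEM126A was lowered and where it was raised. Its knockdown value rests on a mean of 26.9 normalized counts, so that with a mean of at least 100 required it is not measured there, 3 members are called higher with knockdown, and none is called in both lines. Its promoter, printed for that reason and in lower case throughout, held neither motif.
TJP3 promoter, chr19:3708134-3708433, plus strand: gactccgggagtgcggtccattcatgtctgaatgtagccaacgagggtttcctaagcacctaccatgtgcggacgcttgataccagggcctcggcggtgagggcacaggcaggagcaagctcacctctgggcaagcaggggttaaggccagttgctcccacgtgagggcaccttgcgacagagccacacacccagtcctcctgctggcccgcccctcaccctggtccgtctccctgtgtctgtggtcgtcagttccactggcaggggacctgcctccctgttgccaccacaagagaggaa

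By any fold, intervals left out 1 for 16 of the 31 members in Ca1a: 7 were higher, beside 18.6% of all genes, and 9 lower, beside 16.9%. The 9 lower ones included PKP3, 1.15-fold lower (1.10 to 1.21), CLDN7, 1.12-fold lower (1.09 to 1.15), CLDN12, 1.11-fold lower (1.07 to 1.16), DSP, 1.08-fold lower (1.06 to 1.10), and DSG3, 1.06-fold lower (1.03 to 1.09). CLDN1 was 1.14-fold higher (1.11 to 1.18), with 7470 reads in overexpressing cells against 6528 in their control. JUP, at 9522 reads in overexpressing cells and 9646 in their control, had a ratio of 0.987 (0.959 to 1.02).

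CLDN1, CLDN4, CLDN7 and PKP3 were among the members beyond counting error in both lines. CLDN1 was lower with TMEM126A knockdown and higher with overexpression, while CLDN4, CLDN7 and PKP3 were higher with knockdown and lower with overexpression. DSP was lower and PKP2 higher in both. In Ca1a CLDN4 was 1.06-fold lower (1.01 to 1.11), and PKP2 was 1.10-fold higher with knockdown and 1.08-fold higher with overexpression. The share of all genes beyond counting error in both lines, in the same or in opposite directions, was not counted. These directions are therefore a description, and a link to TMEM126A was not tested. Across the 21 members measured in both lines the log2 ratios had a Spearman correlation of 0.01 and a Pearson correlation of 0.52, and without TJP3 these were -0.14 and -0.05. The points are genes and not replicates, and each line's ratios come from a single pair of libraries.

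Genes of neighbouring structures in Ca1a were called in either direction, where 3.95% of all genes were higher and 4.14% lower. Lower were 1 of 11 adherens junction genes and 1 of 6 hemidesmosome genes, while 1 of 4 desmosome-linked genes was higher. Of 16 other tight junction and polarity genes, 1 was higher and 1 lower. Of 6 gap junction genes, 2 were lower, among them GJC1, a connexin gene, 1.41-fold (1.246 to 1.60). PLEC, the plectin gene of the hemidesmosome list, was 1.29-fold lower (1.27 to 1.30), and the nectin gene PVRL3 was 1.26-fold lower (1.10 to 1.45). PPL was higher here too, 1.35-fold (1.33 to 1.38), with 24664 reads in overexpressing cells against 18221 in their control. In the list of other tight junction and polarity genes, ILDR1, whose protein recruits tricellulin, was 2.22-fold higher (1.24 to 4.12) on 40 reads in overexpressing cells and 18 in their control, and the cingulin relative CGNL1 was 2.07-fold lower (1.29 to 3.42) on 27 reads in overexpressing cells and 56 in their control. Of 17 epithelial identity genes, ELF3 was higher, 1.43-fold (1.33 to 1.55). Of 5 measured drivers of the mesenchymal state, SNAI2 was lower, 1.54-fold (1.46 to 1.62), with 2203 reads in overexpressing cells and 3385 in their control, and CDH1 had a ratio of 1.01 (0.987 to 1.04).

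In the authors' deposited table for MDA-MB-231 none of the 41 members with a p-value had an adjusted p under 0.05, and the lowest was 0.188, for JUP. In the authors' deposited table for Ca1a none of 42 members did, and the lowest was 0.746, for OVOL1.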

How the data were processed

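RNA-seq of 4 cell line cultures, 1 library per group, was described by values and counting intervals only. The submitters' processing notes name HISAT2, Cufflinks, HTSeq and DESeq, with builds GRCh38.p5 and hg38; the sources used here give no versions, roles or strand setting. Per the file headers, the expression columns are DESeq base means. Those of Ca1a are whole-number counts as deposited, and those of MDA-MB-231 are a signal, counts that the authors had scaled by a size factor. All MDA-MB-231 values (100%) were whole multiples of the smallest, within a tolerance of 1e-06, and these multiples were used as reads. The deposited FPKM lack a stated denominator. The authors' log2 fold changes were not used, and the authors' deposited p-values were copied.

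Ratios of normalized counts had exact conditional binomial (Clopper-Pearson) intervals and levels exact Poisson intervals, at 95%. A count of 0 allows up to 3 reads. Both cover counting error only, since reads without molecular identifiers are not independent molecules. Genes whose normalized counts averaged under 20 were left out. Medians are of log2(value + 1), and the lines were compared on log2(FPKM + 0.1), with ratio intervals from reads over library totals. By rule, the text names members called (up to 12 in each direction), up to 10 in each direction and the 8 of highest FPKM per line between controls, and up to 3 called genes per further list. Other genes named, the ERBB3 value, the partners ELP5 and OVOL1-AS1 and the printed promoters were chosen after their values were seen. Members and lists were chosen with earlier results of these data known. All 53 members were placed in GENCODE release 29 through their Entrez IDs. The interval script was tested on simulated data. Tools were python 3.11.15, numpy 2.4.6, pandas 2.3.3, scipy 1.17.1, matplotlib 3.10.9, R 4.3.3 and edgeR 4.0.16 (TMM scaling only). Alternatives were other scalings, filters, folds, pseudocounts and FPKM. Some genes are counted but not reported by name here.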

Additional observations from a re-analysis of the deposited data

How the results depend on the processing

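No paired analysis was possible because each group held 1 library, and for the same reason no library could be left out. In the knockdown comparison the 4 genes higher and 0 lower became 2 higher at 1.5-fold, 1 higher at 2-fold, 8 higher and 4 lower at any fold, and 1 lower with FPKM. In the overexpression comparison the 3 higher and 1 lower became 1 higher and 0 lower with a mean of at least 100 or at 2-fold, and 7 higher and 9 lower at any fold. There were 2 lower without the counting interval and 2 lower with FPKM. Between the controls the 3 higher became 1 with a pseudocount of 1 FPKM, and those lower ranged from 16 to 22 over the alternatives. The other 52 values tied to a comparison kept within 1.5 times their count or, for medians, within the 95% rank interval of the median. Without a filter the median log2 ratio was -0.01 in the knockdown comparison and -1.38 between the controls. No ratio of a called gene turned round in the scalings by total reads and TMM or in FPKM, and CLDN7 was the gene that lost its call. Scaling by total reads shifted all knockdown ratios by -0.03 and overexpression ratios by -0.004 on the log2 scale. Depth limits TJP3 in MDA-MB-231 and GRHL3, MARVELD2 and OVOL1 in Ca1a, each on at most 128 reads in a library.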
